A study of Homo sapiens with 5 samples.

Results

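The nuclear-encoded subunits of the mitochondrial respiratory chain and ATP synthase were followed as transcripts across 5 RNA-seq libraries of TOV21G cells, an established human ovarian clear cell carcinoma line. Members were the gene table's rows whose symbol starts with NDUFA, NDUFB, NDUFC, NDUFS or NDUFV and a number (complex I), with UQCR (complex III), with COX and a number of the structural subunits (complex IV) or with ATP5 (complex V), together with SDHA, SDHB, SDHC and SDHD (complex II) and CYC1 (complex III). This gave 93 of 28442 rows: 41 for complex I, 4 for complex II, 11 for complex III, 17 for complex IV and 20 for complex V. Of the 93 rows, 82 are subunits or their tissue forms. The other 11 are 2 antisense RNAs, 2 read-through transcripts, 4 pseudogenes or copies, and the 3 assembly-related rows ATP5S, ATP5SL and COX7A2L. The rule uses symbols only.

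The study asked about HDAC6, a mainly cytoplasmic deacetylase, in ovarian cancers with mutated ARID1A, a subunit of a chromatin remodelling complex. The 5 libraries are 1 each of TOV21G cells with a control hairpin (shControl), with a hairpin against HDAC6 (shHDAC6), with drug vehicle, and with the HDAC6 inhibitors ACY1215 and CAY10603. All were grown in RPMI 1640, and the hairpin-carrying cells were selected with puromycin. The sources used here give no doses, times, hairpin sequence or number of cultures. No treatment has a replicate library. The p-values therefore measure only a spread that includes the differences between the interventions, from which technical spread cannot be separated.

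Complex I takes electrons from NADH and complex II from succinate, both reduce ubiquinone, complex III passes the electrons on to cytochrome c, and complex IV hands them to oxygen. Complexes I, III and IV pump protons, and ATP synthase, complex V, uses the gradient to make ATP. Each complex other than II combines core subunits made by the mitochondrial genome or the nucleus with many small supernumerary subunits, all nuclear. Nuclear and mitochondrial products must be matched during assembly, and NRF1, ETS-family factors such as GABPA, and YY1 are known regulators of the nuclear genes. The transcripts made by the mitochondrial genome were not analysed here.

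The promoters below are shown because their transcripts carry the contrast described later: ATP5E, COX7C and UQCRH were among the members lowest in shHDAC6, and COX8A was the member furthest above its control there. Each is the 150 bases before the RefSeq start site in GRCh38.p14, 5′ to 3′ on the gene's strand, with matches to NRF1, ETS or YY1 letters in capitals. The windows are chr20:59032336-59032485 (- strand), chr5:86617791-86617940 (+ strand), chr1:46303548-46303697 (+ strand) and chr11:63974470-63974619 (+ strand).
ATP5E: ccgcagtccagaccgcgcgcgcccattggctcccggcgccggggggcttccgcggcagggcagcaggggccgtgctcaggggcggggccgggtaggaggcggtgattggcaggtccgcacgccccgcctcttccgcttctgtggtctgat
COX7C: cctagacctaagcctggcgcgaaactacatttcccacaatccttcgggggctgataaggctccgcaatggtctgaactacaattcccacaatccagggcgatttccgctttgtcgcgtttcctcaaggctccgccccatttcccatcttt
UQCRH: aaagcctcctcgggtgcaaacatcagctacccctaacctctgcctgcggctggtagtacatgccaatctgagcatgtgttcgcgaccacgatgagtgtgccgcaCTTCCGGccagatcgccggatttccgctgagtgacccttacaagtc
COX8A: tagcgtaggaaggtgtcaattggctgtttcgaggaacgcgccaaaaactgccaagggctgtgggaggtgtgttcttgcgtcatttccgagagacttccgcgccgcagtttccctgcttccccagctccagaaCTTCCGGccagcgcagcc
UQCRH and COX8A hold the same ETS letters on the reverse strand, whereas ATP5E and COX7C hold no match in these bases.

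RefSeq promoters, from 250 bases before to 50 after the start, were found for 72 of the 93 rows, 62 of them subunits with an average of at least 5 CPM, counts made comparable between libraries of unlike depth. Motifs were searched on both strands as fixed letters, none of which contains another: GCGCNTGCG for NRF1, CCGGAAG for ETS factors, AANATGGCG for YY1, GGGCGG for SP1 and TATAAA for the TATA box. The NRF1 letters were in 21 of 62 subunit promoters (33.9%), against 7.47% of all 35116 promoters. ETS letters were in 19 (30.6%, against 10.3%) and YY1 letters in 16 (25.8%, against 3.19%). SP1 letters were in 59.7% against 45%, and TATA letters in 9.68% against 11.5%. By complex, NRF1 letters were in 9 of 32 promoters for complex I, 2 of 3 for complex II, 4 of 7 for complex III, 1 of 9 for complex IV and 5 of 11 for complex V. YY1 letters were in 10 of 32 complex I promoters and 1 of 9 complex IV promoters. The 62 promoters were kept for the level of their genes in these cells and the 35116 were not, so these shares are not matched for expression. COX6C, UQCRB and NDUFS5 were among the rows with no promoter found. A match is a description of letters, not a measured site.

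Most members were well expressed. The floor of 5 CPM, as the mean of all libraries, was reached by 78 rows, of which 75 are subunits. Of the other 15, 13 had some counts and 2, COX7A1 and COX7B2, had 0 in every library. Just inside this limit were SDHC at 9.47 and NDUFA3 at 10.8 CPM, and just outside were ATP5S at 2.95 and NDUFA6-AS1 at 2.19 CPM.

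**Figure D1:**
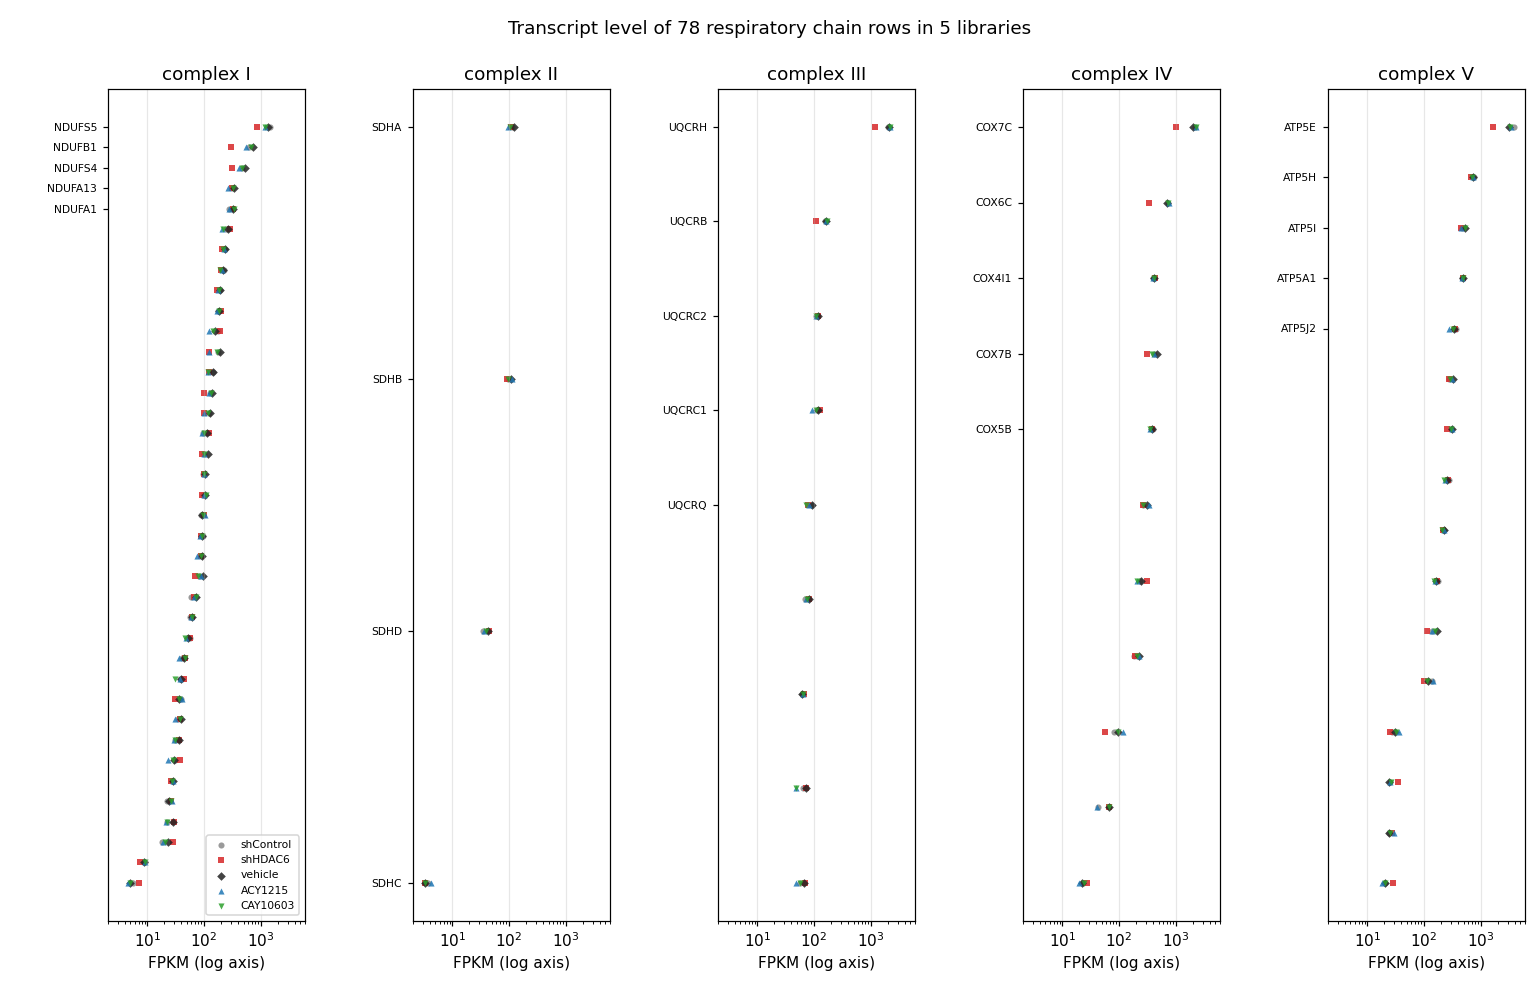
FPKM (log axis) of the 78 respiratory chain rows at 5 CPM or more, in 1 panel per complex ordered by mean FPKM (y axis, with up to 5 of the highest rows named), with 1 symbol per library and no error bars because each treatment has 1 library. ATP5E, COX7C, UQCRH and NDUFS5 lie at the top of their panels, with shHDAC6 (square) to the left of the other libraries.

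Levels of different genes were compared as the authors' FPKM, which is per transcript length. ATP5E, the small epsilon subunit of the ATP synthase central stalk, was highest, with 3967 FPKM in shControl and 1678 in shHDAC6, with 3143 in vehicle, 3485 in ACY1215 and 3375 in CAY10603. The shHDAC6 library was the low one, and the other 4 did not reach down to it. The length implied by its count and FPKM was 290 bases in shHDAC6 and 253 in shControl, which lowers its FPKM in shHDAC6. Libraries are therefore compared by CPM below. COX7C, a small membrane subunit of complex IV, followed at 2168, 1023, 2046, 2332 and 2298 FPKM in the same order of libraries. UQCRH, the hinge protein of complex III, had 2053, 1198, 2110, 2246 and 2213 FPKM. The ranges of COX7C and UQCRH overlapped, so their order is not separated by these libraries, while ATP5E lay above both in every library. NDUFS5, a supernumerary complex I subunit, was next with a mean of 1218 FPKM, followed by ATP5H, of the peripheral stalk, at 720.3 and COX6C at 650.5. Among the rows at 5 CPM or more, the lowest subunits were NDUFC2 at 8.67 and SDHC, a membrane anchor of complex II, at 3.57 FPKM. Subunits of one complex are needed in fixed proportions, yet the 4 complex II transcripts ran from 3.57 FPKM (SDHC) through 39.8 (SDHD) and 101 (SDHB) to 109 (SDHA).

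The tissue forms separated cleanly. COX4I1 was present at 257 to 292 CPM, while COX4I2, its form known from lung and low oxygen, had 1 count in ACY1215 and 0 elsewhere. The muscle forms COX6A2 and COX7A1 had 1 count in all and 0 counts. The testis forms COX7B2 and COX8C had 0 counts and 1 count, and COX6B2 had 20 to 37 counts per library. NDUFA4L2, a hypoxia-responsive relative of NDUFA4, had 6, 8, 4, 6 and 0 counts in shControl, shHDAC6, vehicle, ACY1215 and CAY10603, against 42.2 to 54.4 CPM for NDUFA4. The genes ATP5G1, ATP5G2 and ATP5G3 encode the same mature c-ring subunit, and ATP5G2 was the main source at a mean of 143 FPKM against 26.9 and 26.1.

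Total counts per library were 43498805 to 57442767. The hairpin libraries had a count for 18571 and 18719 genes and the drug-series libraries for 21031 to 22189, so the 2 experiments differ in detection. HDAC6 itself was at 47.9 CPM in shControl and 29.1 in shHDAC6, and at 51.0 in vehicle, 33.1 in ACY1215 and 48.2 in CAY10603. The 9 clear cell and epithelial markers summed to 805 to 965 CPM. Marker sums were 0.256 to 0.513 CPM for endothelium (4 genes), 3.2 to 6.85 for fibroblasts (6 genes, mostly COL1A1 at 2.41 to 4.34), 0 to 0.103 for erythroid cells (4 genes, HBA2 at 0) and 4.72 to 11.8 for striated muscle (5 genes, nearly all TNNT2 at 4.50 to 11.7). In such bulk libraries fewer cells of a kind and less RNA per cell cannot be told apart.

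When the 3 interventions were pooled against the 2 controls, no respiratory chain transcript passed the test. Of 80 members tested, 0 had an adjusted p under 0.05 in edgeR's quasi-likelihood test (background 0%, 0 of 13449 genes), as in DESeq2 and limma-voom, and 2 had an unadjusted p under 0.05 (background 0.744%), a number that was 0 without shControl or without shHDAC6. Those 2 were the small complex I subunits NDUFB1, with a log2 fold of -0.50 (SE 0.20, unadjusted p = 0.0398, adjusted p = 0.9995 by edgeR), and NDUFA6, with -0.40 (SE 0.16, unadjusted p = 0.0468, adjusted p = 0.9995 by edgeR). The next was ATP5S, an ATP synthase coupling factor, at 0.66 (SE 0.30, unadjusted p = 0.0664, adjusted p = 0.9995 by edgeR). The NDUFB1 fold was -0.19 without shControl or without shHDAC6, where the fit compares only the drugs with vehicle. It was -0.89 without vehicle, where only shHDAC6 against shControl remains. With experiment type as covariate, these fits are parts of the pooled one and not separate checks of it. The ATP5S fold ranged from 0.45 to 0.94 with 1 library left out. A log2 fold above 0 was seen for 42 of the 80, and their median was 0.01 against 0.00 for all tested genes (0.0073 and 0.0016 unrounded).

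The comparisons below set 1 library against 1 other. They have no replicate check and no test, and their intervals (95%, exact binomial) cover counting error only. Folds are of CPM scaled by TMM, a factor that sets the bulk of genes level between libraries, and a prior count of 2 was added. A row was counted as apart where it was at least 25% higher or 20% lower, a log2 fold of 0.322 in either direction, over the 10738 genes at 5 CPM or more.

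In shHDAC6, several small subunits of high level were lower than in shControl. Of 78 members, 12 were at least 20% lower (background 10.9%) and 14 at least 25% higher (background 12.1%). The median was 0.06 against 0.00 for all genes, with an interquartile range of 0.42 against 0.34. By any amount 44 rows were higher (background 50.7%). Only COX6C and ATP5E were 2-fold lower or more (background 0.251%), and 0 members were 2-fold higher (background 0.438%). By complex the medians were 0.10 for I, -0.05 for II, 0.15 for III, 0.09 for IV and 0.01 for V.

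**Figure D2:**
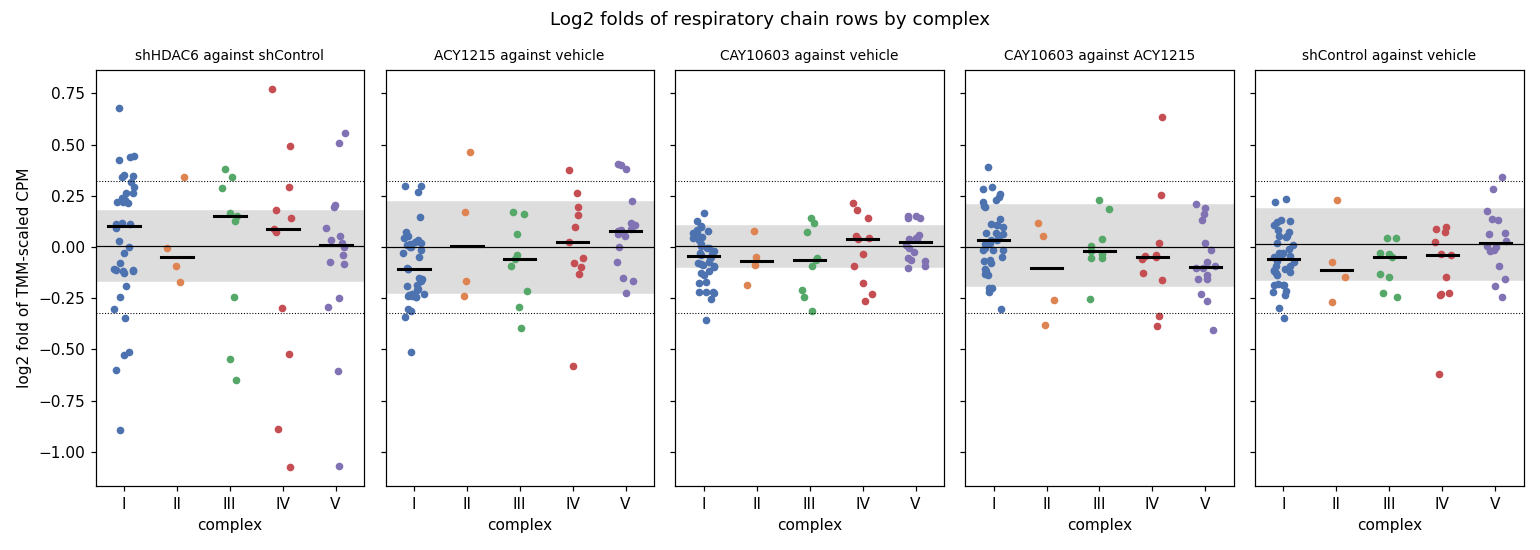
Log2 fold of TMM-scaled CPM (y axis) of each of the 78 rows by complex (x axis), in 1 panel per pair of libraries; black bars are complex medians, the grey band and thin line are the interquartile range and median of 10738 genes, and dotted lines mark 25% higher and 20% lower. The shHDAC6 panel spreads from -1.07 to 0.77, and the CAY10603 against vehicle panel from -0.36 to 0.22.

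Among the members lower in shHDAC6, COX6C, a one-helix complex IV subunit, had 529 CPM in shControl and 251 in shHDAC6, with 503 in vehicle, 577 in ACY1215 and 554.5 in CAY10603. The shHDAC6 value lay below all 4 others, with a log2 fold of -1.07 against shControl (interval -1.10 to -1.045). ATP5E had 999 CPM in shControl and 475.5 in shHDAC6, with 789 in vehicle, 922 in ACY1215 and 875 in CAY10603. Again shHDAC6 was apart below the rest, at -1.07 (interval -1.09 to -1.05). NDUFB1 had 145.5, 78.2, 169, 136 and 160.5 CPM in the same order, with shHDAC6 lowest and ACY1215 next, and its fold in shHDAC6 was -0.89 (interval -0.95 to -0.84). COX7C had 478.5, 258, 451, 541 and 523 CPM, a fold of -0.89. UQCRH had 702, 447, 718, 807 and 778 CPM, a fold of -0.65. In both, shHDAC6 was the low library and the drug libraries were above vehicle.

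The remaining lower members were NDUFS5 (-0.60), NDUFS4, a subunit needed late in complex I assembly (-0.53), NDUFA6 (-0.51), NDUFC2 (-0.35), UQCRB, a ubiquinone-binding subunit of complex III (-0.55), COX7A2L, a factor that joins complexes III and IV (-0.52), and ATP5J, coupling factor 6 of the peripheral stalk (-0.61). Setting shHDAC6 against each other library in turn, 9 members were at least 20% below all 4 (background 2.83%): ATP5E, COX6C, COX7A2L, COX7C, NDUFB1, NDUFS4, NDUFS5, UQCRB and UQCRH. No member of any other library was that far below the rest, against backgrounds of 1.1% for shControl, 0.577% for vehicle, 7.51% for ACY1215 and 0.428% for CAY10603.

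The members higher in shHDAC6 had mean levels from 5.46 to 308 FPKM. COX8A, a small complex IV subunit, had 13.5 CPM in shControl and 23.2 in shHDAC6, with 20.8 in vehicle, 13.9 in ACY1215 and 21.6 in CAY10603. Here shControl and ACY1215 were the low libraries and shHDAC6 lay with vehicle and CAY10603, so the fold of 0.77 (interval 0.64 to 0.91) against shControl was 0.15 against vehicle. NDUFB6, a complex I membrane arm subunit, had 11.8, 18.9, 14.5, 12.6 and 13.6 CPM, with shHDAC6 above all others, and a fold of 0.68 (interval 0.54 to 0.82). ATP5G1 had 9.83, 14.5, 9.36, 10.2 and 10.3 CPM, also with shHDAC6 alone above, and a fold of 0.55 (interval 0.40 to 0.72). Members at least 25% above all 4 other libraries in shHDAC6 numbered 6 (background 3.49%): ATP5G1, ATP5SL, COX6B1, NDUFB6, NDUFC2-KCTD14 and NDUFS3. The others counted as higher against shControl were NDUFS7 (0.44), NDUFB4 (0.42), UQCR10 (0.38), NDUFA1 (0.35), NDUFA3 (0.34), SDHD (0.34) and CYC1 (0.34).

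**Figure D3:**
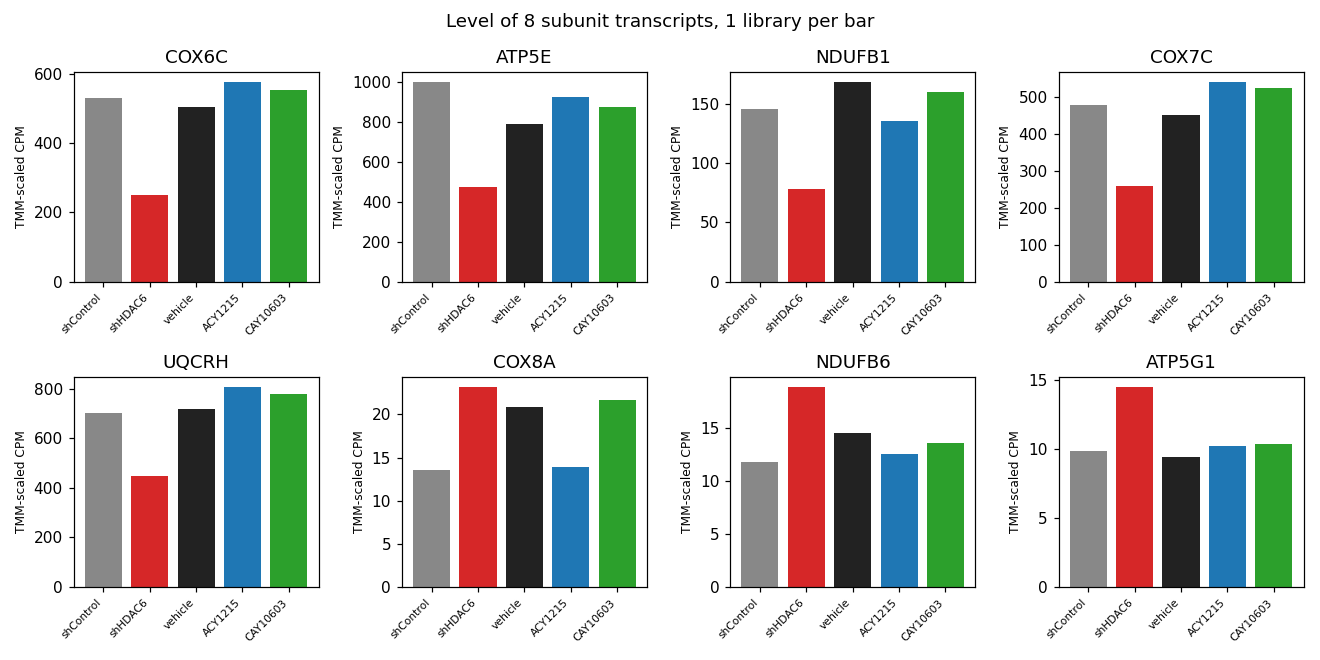
TMM-scaled CPM (y axis from 0, own scale per panel) of 8 subunits in the 5 libraries (x axis), 1 library per bar and so no error bars. COX6C, ATP5E, NDUFB1, COX7C and UQCRH are lowest in shHDAC6, NDUFB6 and ATP5G1 are highest there, and COX8A is low in shControl and ACY1215.

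A list of 21 subunits, called core here, was drawn from the 5 complexes with earlier results known. It included NDUFS1, NDUFS3, NDUFS7 and NDUFV1, the complex II subunits, CYC1 and UQCRFS1, and ATP5A1, ATP5B and ATP5C1. Its complex IV rows, COX4I1, COX5A and COX5B, are supernumerary subunits. The list is therefore not a strict split of core from supernumerary subunits. Among the rotor subunits, ATP5C1 is on this list, while ATP5D (-0.07 in shHDAC6), ATP5E (-1.07) and the c-ring genes ATP5G1 (0.55), ATP5G2 (-0.29) and ATP5G3 (0.21) are not. Of its 21 rows in shHDAC6, 0 were at least 20% lower (background 10.9%) and 4 at least 25% higher (NDUFS3, NDUFS7, SDHD and CYC1, 19.05% against a background of 12.1%), with a median of 0.08 (0.0751 unrounded) and a range from -0.17 (SDHC) to 0.44 (NDUFS3). Among 54 other subunits 11 were lower (20.4%) and 8 higher (14.8%, near the background), with a median of 0.01. The iron-sulfur subunit NDUFS1 was at 314, 321, 335, 339 and 328 CPM, and SDHA, the flavoprotein of complex II, at 244, 229, 257, 217.5 and 225 CPM in shControl, shHDAC6, vehicle, ACY1215 and CAY10603. Of the ATP synthase subunits on the list, ATP5A1 was at 822, 851, 830, 862.5 and 854 CPM. ATP5B ranged more, at 458, 446, 406.5, 407 and 379 CPM. The difference between core and other subunits was not tested.

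The members of the highest level were mostly among the lower ones, although the lower ones were not all of high level: COX7A2L (89.0 FPKM) and ATP5J (123) were lower too. NDUFC2 (8.67 FPKM) was also counted as lower, but summed with its read-through row NDUFC2-KCTD14 it was at -0.05. Of the 7 members at a mean of 500 FPKM or more, 6 were at least 20% lower in shHDAC6, with a median of -0.89. ATP5H, at -0.08, was the exception. Over all 154 genes of that level the median was -0.14 and 46 were at least 20% lower, so the direction was also there outside the respiratory chain. Across the 78 members the fold and the log2 mean FPKM had Pearson r = -0.53 and Spearman rho = -0.475 (all genes rho = -0.195), as a description over genes that share the same libraries and whose mean includes shHDAC6. Against the log2 length implied by count and FPKM, the members' Pearson r was 0.03. Short genes of the whole table were nevertheless more often at least 20% lower in shHDAC6. Under 400 bases these were 38 of 164 genes, and from 400 to 600 bases 41 of 189. They were 108 of 618 from 600 to 1000 bases and 983 of 9765 above. Among members they were 5 of 17, 1 of 16, 2 of 16 and 4 of 29. The background of 10.9% is thus mostly of long genes, and the part of length was not tested. In the drug pairs r with the level was -0.04 for ACY1215 and -0.05 for CAY10603. The part of transcript level, with which the shHDAC6 folds move, was not tested.

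**Figure D4:**
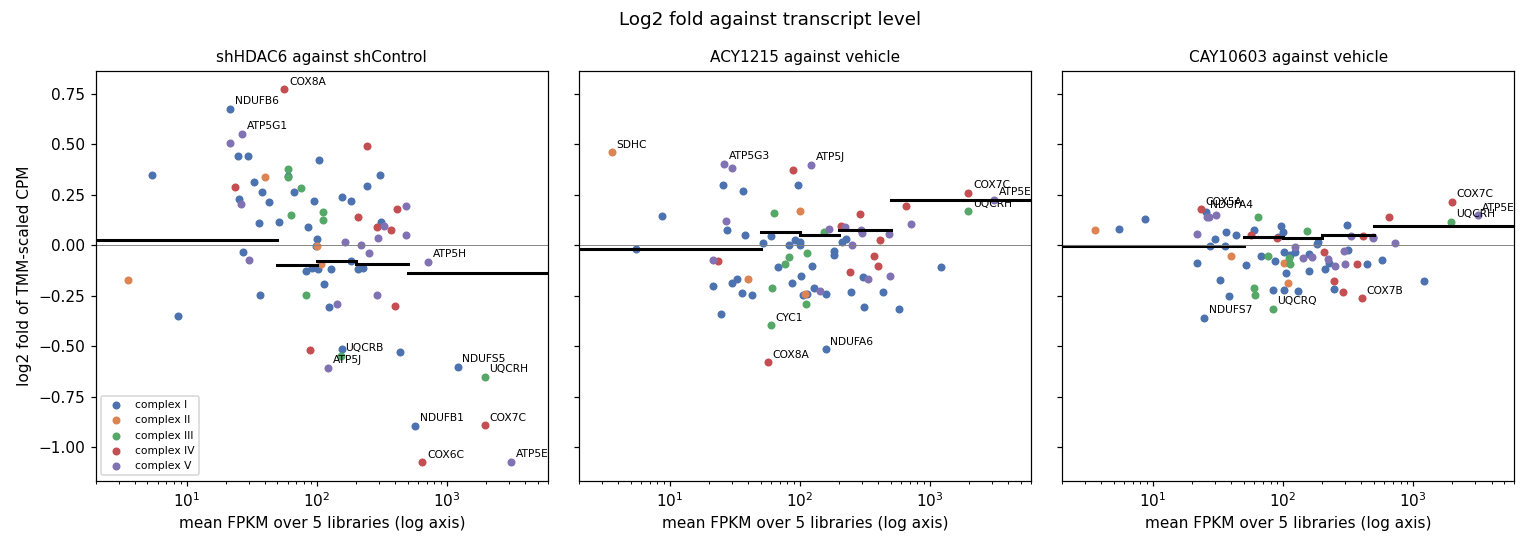
Log2 fold of TMM-scaled CPM (y axis) against the mean FPKM over 5 libraries (x axis, log) for the 78 rows, coloured by complex, in the 3 interventions; horizontal black bars are the medians of all genes in 5 classes of FPKM. In shHDAC6 the members at the right lie between -0.60 and -1.07 apart from ATP5H at -0.08, below the all-gene bar at -0.14.

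The same difference shows in the summed level. All 93 rows together held 12130 CPM in shControl and 10390 in shHDAC6, with 12130 in vehicle, 12350 in ACY1215 and 12080 in CAY10603, so shHDAC6 was the low library. Without the 10 members of the highest mean FPKM the sums were 7263, 7101, 7492, 7383 and 7229 CPM. The sum of those 83 rows thus differed little between shControl and shHDAC6, and most of the gap in the sum lay in 10 transcripts. Single rows among the 83 did differ, in both directions. UQCRB had 726 CPM in shControl and 497 in shHDAC6, and COX6B1 had 95.9 and 135. All members counted as higher in shHDAC6 are among the 83. By complex the sum in shHDAC6 against shControl was 3317 against 3610 CPM for I, 380.3 against 386 for II, 1698 against 2117 for III, 1502 against 1950 for IV and 3492 against 4064 for V.

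Overlapping rows affect a few members, because reads can be split between them. SLMO2-ATP5E, a read-through row over ATP5E, held 162, 1451, 209, 448 and 104 counts in shControl, shHDAC6, vehicle, ACY1215 and CAY10603, and adding it gave ATP5E a fold of -0.99 in shHDAC6 (an alternative added after the values were seen). NDUFC2 was at -0.35 and NDUFC2-KCTD14 at 0.35, and their sum was at -0.05 in shHDAC6. ATP5J2-PTCD1 had 127 counts in vehicle, 54 in ACY1215 and 0 in the others. The near-identical copy UQCRHL held 10 to 25 counts beside 23607 to 42128 for UQCRH. NDUFA6-AS1, antisense to NDUFA6, held 96 to 123 counts beside 6569 to 10242, and the strand setting of the counting is not stated in the sources used here.

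In ACY1215 against vehicle, members lay closer to their control than all genes did, a trait not particular to this pair. Of 78 members, 5 were at least 25% higher (background 16.8%) and 4 lower (background 18.1%), with 0 at 2-fold in either direction (background 1.67% higher and 3.04% lower). The interquartile range of the folds was 0.27 against 0.45 for all genes, and the median was -0.03 against 0.00. That range was also narrower for members in CAY10603 against vehicle (0.155 against 0.20) and in shControl against vehicle (0.20 against 0.35). All genes are not matched to the members for level: 8960 of 10738 were under 50 FPKM, against 19 of 78 members. Of the folds, 37 of all 78 rows were higher by any amount (background 50%). Of complex I 24 of 38 rows were lower, with a median of -0.11, and 12 of 16 rows of complex V were higher, with a median of 0.08. With the other control the complex I values were nearer to 0: against shControl 20 of 38 rows were lower, with a median of -0.01, and shControl itself had 25 of 38 below vehicle. Complex V had 11 of 16 rows above shControl. Medians were 0.00 for II, -0.06 for III and 0.03 for IV.

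The lowest in ACY1215 against vehicle were COX8A (-0.58, interval -0.72 to -0.44), NDUFA6 (-0.515, interval -0.56 to -0.47), CYC1, the haem-bearing cytochrome c1 (-0.40), and NDUFS7, an iron-sulfur subunit that reduces ubiquinone (-0.34). Against shControl, ACY1215 was at 0.04 for COX8A, -0.44 for NDUFA6, -0.17 for CYC1 and 0.004 for NDUFS7. NDUFA6 had 178 CPM in shControl and 124 in shHDAC6, with 187 in vehicle, 131 in ACY1215 and 171 in CAY10603. It was thus low in shHDAC6 and ACY1215 and close to the controls in CAY10603. The highest were SDHC (0.46, interval 0.27 to 0.65), ATP5G3 (0.40), ATP5J (0.40), ATP5D, the delta subunit of the central stalk (0.38), and COX7A2L (0.38). With shControl as control these were at 0.23, 0.37, 0.12, 0.48 and 0.60 in the same order. COX7A2L had 125.3, 87.4, 147, 190 and 150.5 CPM in shControl, shHDAC6, vehicle, ACY1215 and CAY10603. ACY1215 was the high library and shHDAC6 the low one, and it was the only member at least 25% above all others in ACY1215 (background 5.84%).

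CAY10603 against vehicle gave the smallest differences. Of 78 members, 0 were at least 25% higher (background 2.76%) and 1 was lower (background 4.03%). That row was NDUFS7, with 17.7 CPM in shControl and 24.0 in shHDAC6, with 22.5 in vehicle, 17.7 in ACY1215 and 17.5 in CAY10603. Vehicle and shHDAC6 were the high libraries and the other 3 were alike, so NDUFS7 was at -0.36 (interval -0.49 to -0.22) against vehicle and -0.01 against shControl. UQCRQ (-0.31) and COX7B (-0.26) were next, and COX7C (0.22), COX5A (0.18) and NDUFA4 (0.165) were highest. The median was -0.03 against 0.01 for all genes, with an interquartile range of 0.155 against 0.20, and 32 of 78 rows were above vehicle by any amount (background 51.5%).

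ACY1215 and CAY10603 are both hydroxamate inhibitors sold as selective for HDAC6, and the sources used here give no dose or time for either, so matched doses cannot be shown and values are set side by side with no test. In CAY10603 against ACY1215, 2 members were at least 25% higher (background 15.3%), COX8A (0.63) and NDUFA6 (0.39), and 4 lower (background 14%), ATP5J (-0.41), COX6A1 (-0.39), SDHC (-0.38) and COX7A2L (-0.34). The median of the 78 was -0.02 against 0.00 for all genes. Both drugs share the vehicle library, so their folds are not independent. The following members were picked for a common sign, from 8 above (all genes 11.6%) and 12 below (all genes 10.8%) their controls in each intervention, and 8 of 78 is near the background. NDUFA4, counted here under complex I by its name though known as a partner of complex IV, was above its control in each intervention, at 0.23 in shHDAC6, 0.30 in ACY1215 and 0.165 in CAY10603. UQCR11 (0.15, 0.16 and 0.14) and ATP5G3 (0.21, 0.40 and 0.14) were also above in each. NDUFA6 (-0.51, -0.515 and -0.13), NDUFB7 (-0.12, -0.21 and -0.22) and NDUFV1, the NADH-oxidizing flavoprotein (-0.11, -0.15 and -0.22), were below in each.

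The 2 control libraries measure how far members vary with no intervention on HDAC6, although hairpin and drug handling differ as well. In shControl against vehicle, 1 member was at least 25% higher (ATP5E, 0.34; background 12.3%) and 2 lower (COX8A, -0.62, and NDUFS7, -0.34; background 12.3%). The interquartile range was 0.20 against 0.35 for all genes. ATP5E and COX8A are thus among the members with the largest difference between controls as well as in shHDAC6, and the ATP5E fold of -1.07 became -0.73 against vehicle. COX6C differed by 0.07 between the controls, and was at -1.003 against vehicle. NDUFB1 was at -1.11 against vehicle.

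Other genes of the mitochondrion, from lists of textbook members, had 0 genes at an adjusted p under 0.05 by edgeR in the pooled test. In shHDAC6, where the background was 10.9% lower and 12.1% higher, 4 of 14 complex I assembly factors were at least 20% lower and 1 was at least 25% higher, with a median of -0.19. The higher one was FOXRED1 (0.56), and NDUFAF1 (-0.50) and TMEM126B (-0.48) were lowest. Of 70 mitochondrial ribosomal proteins, 19 were lower and 8 higher, with a median of -0.09. MRPS18C (-1.32) and MRPL12 (-1.23) were lowest, and MRPS26 (0.80) and MRPL2 (0.60) were highest. Cytochrome c (CYCS), the carrier between complexes III and IV, had 388 CPM in shControl and 274 in shHDAC6, with 345 in vehicle, 406.5 in ACY1215 and 374 in CAY10603 before TMM scaling. It was lowest in shHDAC6 and highest in ACY1215, with folds of -0.53, 0.34 and 0.17 in the 3 interventions. Medians in shHDAC6, ACY1215 and CAY10603 were -0.08, 0.08 and 0.06 for 21 complex IV assembly factors, -0.25, -0.04 and -0.02 for 4 of complex V, 0.04, -0.11 and -0.06 for 6 of complex III, and -0.04, 0.05 and 0.12 for 3 of complex II. They were -0.06, 0.01 and -0.06 for 19 TCA cycle enzymes, -0.09, 0.09 and 0.05 for 23 import components, and -0.02, 0.23 and -0.005 for 8 electron carriers and other entry points. The 8 MICOS genes, which shape the cristae, were at -0.14, 0.23 and 0.04. Of these 8, 7 were above vehicle in ACY1215 (background 50%) and 7 in CAY10603 (background 51.5%). In shControl 5 of the 8 were above vehicle too (background 52.3%), with a median of 0.16.

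Among 16 regulators of mitochondrial biogenesis, 4 were at least 25% higher and 3 at least 20% lower in ACY1215, against backgrounds of 16.8% and 18.1%, so the count of lower ones is near the background. NRF1, the factor whose letters were searched in the promoters, had 6.27 CPM in shControl and 9.19 in shHDAC6, with 9.43 in vehicle, 5.49 in ACY1215 and 7.73 in CAY10603 before TMM scaling, with a fold of -0.67 in ACY1215 and 0.52 in shHDAC6. It was low in shControl and ACY1215, and ACY1215 against shControl was at -0.12. GABPA, an ETS factor, was at -0.58 in ACY1215, and MYC (0.72) and TFB1M (0.60), a mitochondrial transcription factor family member, were highest there. PPARGC1A, the coactivator of the programme, was at -0.19, 0.04 and -0.10 in shHDAC6, ACY1215 and CAY10603. Of 7 hypoxia targets that bear on respiration, 5 were at least 25% higher in ACY1215, against a background of 16.8%. LDHA, the enzyme that turns pyruvate to lactate, was at 1.03 there, but also at 0.65 in shControl against vehicle, and ACY1215 against shControl was at 0.38. In shControl 6 of the 7 were above vehicle as well.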

How the data were processed

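Total RNA libraries of TOV21G cells were made with the TruSeq Stranded Total RNA kit after Trizol extraction, per the labels' protocols. The deposited table gives expected counts per gene, whole numbers per the file headers, and FPKM values made by the authors with 2 decimals. RSEM 1.2.3, edgeR and hg19 are named in the submitters' processing notes. Aligner, annotation and strand setting: not given in the sources used here. DMSO, a column heading, was taken for the vehicle sample. Promoters are of another build (GRCh38.p14) and were matched by Entrez number. The 2 blank rows were left out, and columns of unknown samples numbered 0.

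Counts were fitted with edgeR 4.0.16 in R 4.3.3: TMM, robust quasi-likelihood F test, group (3 interventions against 2 controls) with experiment type (shRNA or drug) as covariate, at least 1 CPM in at least 2 libraries (13449 genes), Benjamini-Hochberg adjustment at 0.05, 2 residual degrees of freedom. Standard errors were taken from the fold and the F statistic. For single pairs, CPM after TMM with 2 prior counts were used, with a floor of 5 CPM, with folds counted at 25% higher, 20% lower and 2-fold. FPKM folds used a pseudocount of 0.1. Counting intervals are at 95%. Both steps were tested on simulated data.

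Alternatives were RLE factors, no filter, DESeq2 1.42.0, limma 3.58.1 (voom), no covariate, leaving out each library, total-count or upper-quartile scaling, a prior count of 0.5, a floor of 1 CPM, FPKM, and the other control.

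Members and lists were chosen with earlier results of these data known. The text names core subunits, tissue forms, overlapping rows, the 3 highest and 3 lowest members of each pair, members past 2-fold, the 3 with the largest smallest fold of common sign in each direction, the 3 lowest pooled p-values, and, for some of the lists, genes among their 2 highest or 2 lowest. Other names were chosen after their values were seen. The sum of 1 marker list is not reported here.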

Additional observations from a re-analysis of the deposited data

Results flagged for a closer look

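For 10 members the shHDAC6 library lay on 1 side of shControl and both drug libraries on the other side of vehicle, with at least 25% higher or 20% lower in shHDAC6. This difference between hairpin and drugs was not tested, since each arm is 1 library, and both drugs share the vehicle library. The 10 are 12.8% of the 78 members, and 7.38% of all 10738 genes met the same rule. The members below shControl were COX6C, with a log2 fold of -1.07 in shHDAC6 against 0.20 in ACY1215 and 0.14 in CAY10603, ATP5E (-1.07 against 0.23 and 0.15), COX7C (-0.89 against 0.26 and 0.22), UQCRH (-0.65 against 0.17 and 0.12) and UQCRB (-0.55 against 0.07 and 0.07). The members above shControl were COX6B1 (0.49 against -0.13 and -0.175), NDUFS7 (0.44 against -0.34 and -0.36), NDUFB4 (0.42 against -0.245 and -0.14), UQCR10 (0.38 against -0.21 and -0.25) and CYC1 (0.34 against -0.40 and -0.21). The controls themselves differed in several of these members. shControl against vehicle was at -0.34 for NDUFS7, -0.24 for NDUFB4, -0.23 for CYC1, -0.15 for UQCR10 and -0.03 for COX6B1. It was at 0.34 for ATP5E, 0.09 for COX7C, 0.07 for COX6C, -0.03 for UQCRH and -0.05 for UQCRB. Against vehicle, shHDAC6 was at 0.10 for NDUFS7, 0.11 for CYC1 and -0.73 for ATP5E. The part of this gap in the opposite signs was not tested.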

How the results depend on the processing

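The pooled count of 0 genes at an adjusted p under 0.05 ranged from 0 to 4 when 1 library was left out: it was 3 without the vehicle library (control replicate 2) and 4 without ACY1215 (repressed HDAC6 replicate 2). No member was among those genes, nor in DESeq2, limma-voom, RLE, unfiltered or covariate-free fits. The 2 members at an unadjusted p under 0.05 became 0 to 6 when 1 library was left out (0 without shControl or shHDAC6, 6 without vehicle, 5 without ACY1215) and 0 without the covariate. Where shControl, shHDAC6 or vehicle is left out, the fold rests on 1 experiment type alone, so such fits are not separate checks. No paired analysis was possible because the labels carry no replicate numbers (those used here follow record order), and experiment type is already a covariate.

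Member medians relative to all genes depend on the control library: shHDAC6 0.06 became -0.0032 against vehicle, ACY1215 -0.03 became 0.045 against shControl, and CAY10603 -0.04 became 0.0233 against shControl. With the other control, shHDAC6 had 8 members at least 25% higher in place of 14 (background 13.3%), ACY1215 had 2 lower in place of 4 (background 16.9%), and CAY10603 had 1 higher in place of 0 (background 10.8%). In ACY1215, COX8A then stood at 0.0405 and NDUFS7 at 0.0044, a change of sign. With the authors' FPKM the shHDAC6 median was -0.0325 with 7 members higher, and CAY10603 had 2 lower. The effective length implied by count and FPKM is 38.3 bases longer in shHDAC6 than in shControl, which lowers FPKM folds of short transcripts by construction. Against vehicle the same difference was -4.7 bases in ACY1215 and -0.3 in CAY10603, so the hairpin pair alone had a shift of this size. Its part in the count folds of shHDAC6 was not tested. Total-count scaling moved the all-gene median in ACY1215 by -0.10, and counts there were taken relative to it. With upper-quartile scaling CAY10603 had 2 lower and the controls 0 higher, and with a floor of 1 CPM CAY10603 had 1 higher and the controls 4 lower. Of other values for single pairs, 851 kept their direction and size, 84 moved by more than counting error and 2 changed sign. Many of those kept come from RLE, total-count scaling, the prior count of 0.5 and the floor of 1 CPM, each with all 141 kept. With the other control most did not hold. With shControl as control 21 were kept, 34 moved and 2 changed sign, and with vehicle as control 11 were kept and 21 moved.

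With 1 library per treatment, depth limits little (the median member's counting interval is ± 0.06 on the log2 scale in shHDAC6), and the spread between cultures is unknown.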
